A study of Mus musculus with 4 samples.

Results

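The nuclear genes for the subunits of the mitochondrial respiratory chain and ATP synthase were followed in cultured PαS cells. Members were the genes whose symbols start with Nduf followed by a, b, c, s or v and a number, with Uqcr, with Cox4 to Cox8 or with Atp5, together with Sdha, Sdhb, Sdhc and Sdhd. Genes without exon length and names marked as pseudogenes were left out. Of 84 such genes among 46517 listed, 79 reached a mean of 10 exon reads or more over the libraries and are described here, as did 11352 genes in all, called measured below. The 5 that fell below this mean, Cox4i2, Cox6a2, Cox7b2, Cox8b and Cox8c, are isoforms known from particular tissues such as muscle, lung or testis, and none of them had more than 16 reads in a library. Complex I contributed 35 members, complex II 4, complex III 8, complex IV 15 and complex V 17. Ndufa4 was counted with complex IV, to which its protein belongs. Of the 79, 4 carry the family name without being stable subunits: Ndufa4l2, Cox7a2l, Atp5s and Atp5sl.

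PαS cells are mesenchymal cells positive for PDGFRα and Sca-1, here sorted from injured tissue within and around the femur of C57BL/6J wild-type mice after exclusion of CD45, CD11b, Ter119, CD31 and CD34. They were cultured in osteogenic medium for 7 days with IL-17A (10 ng per ml) and BMP-2 (500 ng per ml) together, with BMP-2 alone, with IL-17A alone, or without cytokine. Each condition was measured in 1 library of amplified full-length cDNA, so no difference below has a replicate check. The ages of the mice and the number pooled are not given in the labels. In bulk RNA, fewer cells of a type and less RNA per cell cannot be told apart.

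The respiratory chain passes electrons from NADH through complex I, or from succinate through complex II, to ubiquinone, then through complex III and cytochrome c to oxygen at complex IV. Complexes I, III and IV pump protons across the inner membrane, and complex V, the ATP synthase, lets them flow back to make ATP. Most subunits are encoded in the nucleus and imported, while a small set, including the proton-pumping core of complex I and the catalytic core of complex IV, is encoded in mitochondrial DNA. In bone-forming cells, oxidative phosphorylation is known to run beside a high rate of glycolysis during differentiation.

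Exon reads numbered 4190612 to 4719412 per library, 10.6 to 11% of them not unique to a gene and 53.1 to 53.9% spliced. Pdgfra had 695 exon reads with both cytokines, 375 with BMP-2, 698 with IL-17A and 739 without cytokine, and Ly6a, the gene of Sca-1, had 7636 to 10269. With Thy1, Cd44, Itgb1, Col1a1 and Col3a1 they made a list of 7 genes for the sorted cells. In both cytokines over none 6 of the 7 were lower beyond counting error and 0 higher, against 33.2% and 32.0% of all measured genes. Itgb1 was 0.61 times and Col3a1 0.645 times, while the interval of Thy1 spanned 1 (1.14, 0.939 to 1.4). The defining markers Pecam1 and Cdh5 of endothelium, Ckm and Myh4 of muscle, Hba-a1 and Hbb-bs of erythroid cells and Ucp1 of thermogenic fat had 0 reads in all 4 libraries. Of 5 endothelial markers, the other 3 were measured, with Kdr at 0 reads with both cytokines, 70 with BMP-2, 0 with IL-17A and 117 without cytokine, Cd34 at 0, 12, 44 and 94 and Tek at 23, 63, 51 and 0, and a summed level of 4.78, 31.0, 22.5 and 45.9 CPM (counts scaled to library size). Of 9 skeletal muscle markers only Des was measured, with 46, 112, 78 and 139 reads. Of 9 myeloid markers listed in the files, 7 were measured, and their summed level over the list was 129 CPM with both cytokines, 417 with BMP-2, 152 with IL-17A and 170 without cytokine, most of it Lyz2. Lyz2 had 410, 1728, 509 and 548 reads, whereas Csf1r had 183, 61, 108 and 130, lowest with BMP-2. In BMP-2 over none 3 of the 7 were higher beyond counting error and 2 lower, against 29.9% and 30.9% of all measured genes. Ptprc, the gene of CD45, had at most 4 reads. Of 4 adipocyte markers, 3 were measured, with a summed level of 131, 85.4, 71.4 and 40.5 CPM in the same order of libraries. The part of these cell types in the values below was not tested.

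As a share of all exon reads, the 79 members made up 1.49% with both cytokines, 1.39% with BMP-2, 1.27% with IL-17A and 1.28% without cytokine. Levels per length, as the mean RPKM over the 4 libraries (reads per kilobase of exon, scaled to the reads of the library), had a median of 59.2 among complex I subunits, 104 in complex II, 108 in complex III, 161 in complex IV and 115 in complex V. The most abundant subunit of each complex was Ndufa2 (291 RPKM) in the NADH-oxidizing arm of complex I, Sdhd (155 RPKM), a membrane anchor of complex II, Uqcr10 (364 RPKM), a small subunit of complex III, Cox6b1 (585 RPKM), a subunit at the outer face of complex IV, and Atp5b (358 RPKM), the catalytic β subunit of the ATP synthase. The median member differed by 1.38 times between its highest and its lowest library. Of the 79 members, 40 were highest with both cytokines, 22 with BMP-2, 8 with IL-17A and 9 without cytokine. The map of all members shows this order by complex.

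**Figure D1:**
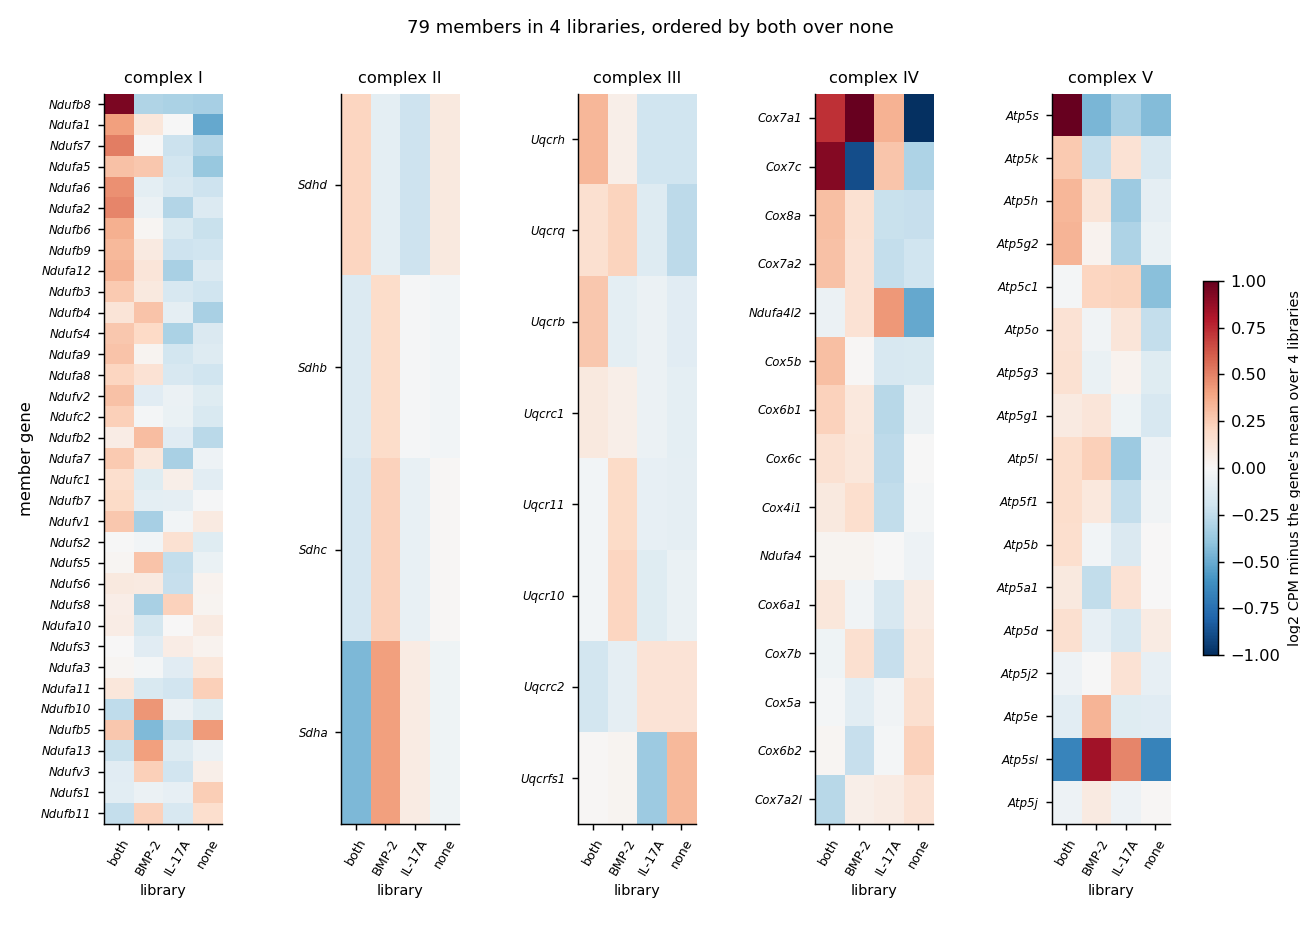
Level of each member in the 4 libraries, as log2 of TMM-scaled CPM (plus 0.5) minus the gene's own mean, with 1 panel per complex, genes down the page ordered by both cytokines over none and libraries across. Colours stop at 1 in either direction. Red in the first column of complex I is most intense for Ndufb8, 20 of 35 complex I members were highest with both cytokines, and in complex II 3 of 4 were highest with BMP-2.

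Genes of this set are known to share binding sites for the factors NRF1, GABP of the ETS family, YY1 and ERR in their promoters. RefSeq promoters of GRCm38.p6, running from 250 bases before the start to 50 after it, were matched to 66 of the 79 members, 3 of them by a newer symbol, and searched on both strands for 1 word of 8 letters for each factor. CGCATGCG (NRF1) was in 8 of 66 member promoters (12.1%), against 1.87% of all 32851 promoters and 3.97% of the 11073 promoters of measured genes. AAGATGGC (YY1) was in 10 (15.2%), against 2.75% of all and 4.52% of measured genes. In all of these but Atp5f1 the word lay 22 to 38 bases after the start. It holds the letters ATG, and its overlap with translation starts was not tested. CAAGGTCA (ERR) was in 4 (6.06%), against 1.56% and 1.02%, and CCGGAAGT (ETS) was in 5 (7.58%), against 3.89% and 8.2%. At least 1 of the 4 words was in 25 member promoters (37.9%), against 9.56% of all promoters and 16.5% of those of measured genes. The words do not overlap in their letters, and a match is a string of letters in this window, not a bound site.

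The stretches around the match are shown for 3 members of each word whose levels are given below, written 5′ to 3′ along the gene with the matched word in capitals. Where the word reads on the other strand, its reverse complement is in capitals.
Ndufa8 (NRF1 word): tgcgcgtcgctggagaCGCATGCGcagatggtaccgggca
Atp5k (NRF1 word): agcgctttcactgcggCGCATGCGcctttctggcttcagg
Cox6a1 (NRF1 word): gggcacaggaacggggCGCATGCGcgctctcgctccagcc
Cox8a (ETS word): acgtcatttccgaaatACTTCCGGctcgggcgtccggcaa
Uqcrh (ETS word): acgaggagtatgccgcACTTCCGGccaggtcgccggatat
Ndufs3 (ETS word): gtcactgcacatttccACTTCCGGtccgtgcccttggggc
Ndufb8 (YY1 word): aaccgcggagaaggtgAAGATGGCtgcc
Ndufs4 (YY1 word): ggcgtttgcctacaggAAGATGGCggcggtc
Ndufc1 (YY1 word): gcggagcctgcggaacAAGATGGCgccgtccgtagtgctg
Sdhd (ERR word): tttccgggttgtagagTGACCTTGagccct
Atp5g3 (ERR word): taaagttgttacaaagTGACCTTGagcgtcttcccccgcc
Ndufs5 (ERR word): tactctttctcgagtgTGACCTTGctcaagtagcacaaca
Positions of these stretches, as read from the RefSeq table, were chr2:36049324-36049363 (minus) for Ndufa8, chr5:108434425-108434464 (minus) for Atp5k, chr5:115349096-115349135 (minus) for Cox6a1, chr19:7217599-7217638 (minus) for Cox8a, chr4:116075058-116075097 (minus) for Uqcrh, chr2:90904698-90904737 (minus) for Ndufs3, chr19:44555393-44555420 (minus) for Ndufb8, chr13:114388045-114388075 (minus) for Ndufs4, chr3:51408910-51408949 (minus) for Ndufc1, chr9:50603800-50603829 (minus) for Sdhd, chr2:73911355-73911394 (minus) for Atp5g3 and chr4:123718391-123718430 (minus) for Ndufs5. In both cytokines over IL-17A the median log2 ratio was 0.29 in the 8 members with the NRF1 word and 0.29 in the 58 without. It was 0.37 in the 10 with the YY1 word against 0.28 in the 56 without, 0.52 in the 5 with the ETS word against 0.28 in the 61 without, and 0.34 in the 4 with the ERR word against 0.29 in the 62 without. These differences rest on few genes and were not tested.

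The first comparison asks how these genes differed with BMP-2, in the presence and in the absence of IL-17A. With BMP-2 added to IL-17A, reads summed over complex I were 1.26 times those with IL-17A alone (95% interval 1.23 to 1.29), complex IV 1.245 times (1.21 to 1.28), complex III 1.14 times (1.10 to 1.18) and complex V 1.14 times (1.12 to 1.16). With BMP-2 alone over none the ratios of complexes I, IV and V were smaller and that of complex III close, at 1.06 (1.04 to 1.09) for complex I, 1.08 (1.05 to 1.11) for complex IV, 1.13 (1.09 to 1.17) for complex III and 1.04 (1.02 to 1.06) for complex V. Complex II alone ran the other way between the states, at 0.896 (0.862 to 0.931) with IL-17A present and 1.19 (1.14 to 1.23) without it. All ratios here are of exon reads scaled by TMM, a scaling that takes most genes as unchanged, and their exact Clopper-Pearson intervals cover counting error only, since reads of amplified cDNA without molecular identifiers are not independent molecules.

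**Figure D2:**
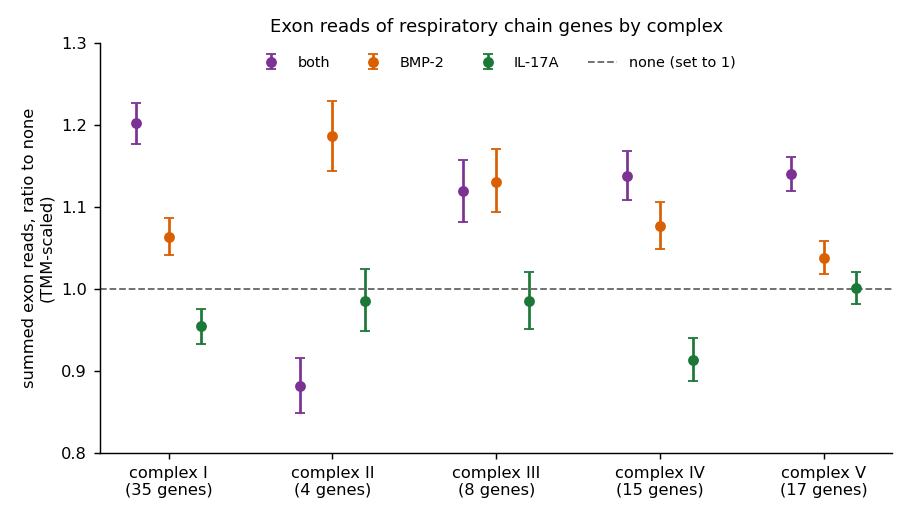
Exon reads summed over the members of each complex (x axis, with the number of genes), as a TMM-scaled ratio to the library without cytokine (y axis), for both cytokines, BMP-2 and IL-17A. Points are 1 library over another and error bars the exact 95% counting interval. With both cytokines complexes I, III, IV and V lie at 1.12 to 1.20 and complex II at 0.883.

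Member by member, 44 of 79 were higher with both cytokines than with IL-17A by more than counting error (55.7%, against 30.3% of all measured genes) and 8 were lower (10.1%, against 32.2%). A ratio of at least 1.5 with an interval above 1 was reached by 11 (13.9%, against 18.1% of all measured genes) and the inverse by 1, Atp5sl (1.27%, against 21.5%). In BMP-2 over none, 35 of 79 were higher beyond counting error (44.3%, against 29.9%) and 15 lower (19%, against 30.9%), and 6 were 1.5-fold higher (7.59%, against 18.3%) and 2 lower (2.53%, against 18.8%). The median log2 ratio of the members was 0.29 in both over IL-17A and 0.14 in BMP-2 over none, while the medians of all measured genes in the 5 comparisons lay between -0.004 and 0.004. These comparisons share no library, and 19 members were higher beyond counting error in both of them (24.1%, against 9.76% of all measured genes), 1 was lower in both (1.27%, against 11.2%) and 12 went opposite ways (15.2%, against 18.3%). With 44 and 35 of 79 higher, 19.5 would be higher in both by these counts alone, and across the 79 members the log2 ratios of the 2 comparisons had a Pearson r of -0.127, given as a description over genes that share 4 libraries. The counts do not test the members against other genes.

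Among complex I genes the higher values with BMP-2 included subunits of every arm. Ndufa5, an accessory subunit of the arm that binds ubiquinone, had 355 reads with both cytokines, 340 with BMP-2, 222 with IL-17A and 211 without cytokine, which made 1.40 times (1.18 to 1.67) in both over IL-17A and 1.58 times (1.33 to 1.89) in BMP-2 over none. Both libraries with BMP-2 lay above both libraries without it. Ndufs4, an accessory subunit of the NADH-oxidizing arm whose loss in mice is known to cause a Leigh-like disease, had 311, 288, 181 and 222 reads in the same order, or 1.51 times (1.251 to 1.82) and 1.27 times (1.06 to 1.52). Ndufa8, of the membrane arm, had 731, 677, 495 and 523 reads, or 1.30 times (1.15 to 1.45) and 1.27 times (1.13 to 1.43). These genes shared the pattern of 2 libraries with BMP-2 above 2 without. Ndufa1, a small membrane-arm subunit that is X-linked, was thinly covered, with 95, 75, 62 and 47 reads, so that its ratio of 1.34 with IL-17A present had an interval of 0.966 to 1.88 that spans 1. By arm, the 10 genes of the NADH-oxidizing module had a summed ratio of 1.34 (1.29 to 1.39) in both over IL-17A and 0.984 (0.948 to 1.02) in BMP-2 over none, the 6 of the ubiquinone module 1.12 (1.07 to 1.18) and 1.07 (1.01 to 1.12), and the 19 of the membrane arm 1.26 (1.22 to 1.30) and 1.12 (1.08 to 1.15).

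Ndufa2, the most abundant complex I gene per length and an accessory subunit of the NADH-oxidizing module, had 1180 reads with both cytokines, 783 with BMP-2, 601 with IL-17A and 730 without cytokine. Only the library with both cytokines stood apart, at 1.72 times IL-17A (1.56 to 1.90) and 1.47 times BMP-2 (1.34 to 1.61), whereas BMP-2 over none was 1.05 (0.9504 to 1.17). Ndufb9, an LYR-motif subunit of the membrane arm, had 728, 601, 441 and 483 reads in that order. It was 1.45 times (1.28 to 1.63) in both over IL-17A and 1.22 times (1.08 to 1.38) in BMP-2 over none.

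In complex IV the small subunits Cox8a and Cox7a2 separated the libraries with and without BMP-2. Cox8a (ENSMUSG00000035885, chr19:7215158-7217616 of mm10, minus strand) had 1366 reads with both cytokines, 1198 with BMP-2, 834 with IL-17A and 901 without cytokine. It was 1.44 times (1.32 to 1.57) in both over IL-17A and 1.30 times (1.20 to 1.42) in BMP-2 over none. Cox7a2, the common form of a subunit at the dimer interface, had 1050, 924, 635 and 713 reads, or 1.45 times (1.31 to 1.60) and 1.27 times (1.15 to 1.40). Cox6b1, the most abundant subunit of the set per exon length (RPKM), had 1775, 1582, 1091 and 1386 reads, or 1.43 times (1.32 to 1.54) and 1.12 times (1.04 to 1.20). Scaled to library size, the libraries with IL-17A alone and without cytokine differed little for Cox8a, at 198 and 196 CPM, and the IL-17A library was the lowest for Cox7a2 and Cox6b1. Cox6a1, the non-muscle form of another small subunit, had 1695, 1494, 1235 and 1584 reads and did not separate in the same way: it was 1.20 times (1.12 to 1.30) in both over IL-17A but 0.926 times (0.862 to 0.994) in BMP-2 over none.

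Complex III genes with higher values included Uqcrh, the hinge protein that helps dock cytochrome c, with 907 reads with both cytokines, 730 with BMP-2, 550 with IL-17A and 598 without cytokine. It was 1.45 times (1.30 to 1.61) in both over IL-17A and 1.20 times (1.07 to 1.34) in BMP-2 over none. Uqcr10 and Uqcr11, small subunits of the same complex, had 1070, 1236, 878 and 999 reads and 653, 740, 552 and 598 reads, and were each 1.21 times in BMP-2 over none (1.12 to 1.32 and 1.09 to 1.35). With IL-17A present their ratios, 1.07 and 1.04, had intervals that span 1. Uqcrc2, a core protein, was the member lower in both states, with 474, 491, 520 and 564 reads. It was 0.799 times (0.704 to 0.907) in both over IL-17A and 0.854 times (0.755 to 0.966) in BMP-2 over none.

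In complex V, Atp5b (ENSMUSG00000025393, chr10:128083273-128090391, plus strand) had 8757 reads with both cytokines, 7451 with BMP-2, 6165 with IL-17A and 7455 without cytokine. It was higher in both over IL-17A (1.246 times, 1.21 to 1.29) and not in BMP-2 over none (0.981 times, 0.9497 to 1.01). Atp5a1, the α subunit, ran differently, with 3198, 2452, 2885 and 2855 reads, so that BMP-2 alone was the lowest library and BMP-2 over none was 0.843 (0.798 to 0.890). Atp5l, subunit g of the membrane part, had 824, 835, 496 and 670 reads, or 1.46 times (1.30 to 1.63) in both over IL-17A and 1.22 times (1.10 to 1.36) in BMP-2 over none. Of its exon reads 36.8% were not unique to the gene. Summed over the 5 F1 genes, which form the catalytic head, the ratio was 1.13 (1.10 to 1.16) in both over IL-17A and 0.992 (0.968 to 1.02) in BMP-2 over none, and over the 4 genes of the peripheral stalk it was 1.18 (1.13 to 1.24) and 1.12 (1.06 to 1.17).

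Some members were at the other end. Ndufs8, an iron-sulphur core subunit of complex I, had 434 reads with both cytokines, 321 with BMP-2, 425 with IL-17A and 404 without cytokine, which made 0.896 (0.782 to 1.03) in both over IL-17A and 0.780 (0.671 to 0.905) in BMP-2 over none. Ndufs3, another core subunit, had 531, 476, 489 and 518 reads, and its ratios of 0.952 and 0.902 had intervals that span 1. Ndufs1, the largest iron-sulphur subunit, was 0.809 times (0.716 to 0.913) in BMP-2 over none, with 490, 492, 436 and 597 reads in the 4 libraries. The library without cytokine was the highest for Ndufs1.

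**Figure D3:**
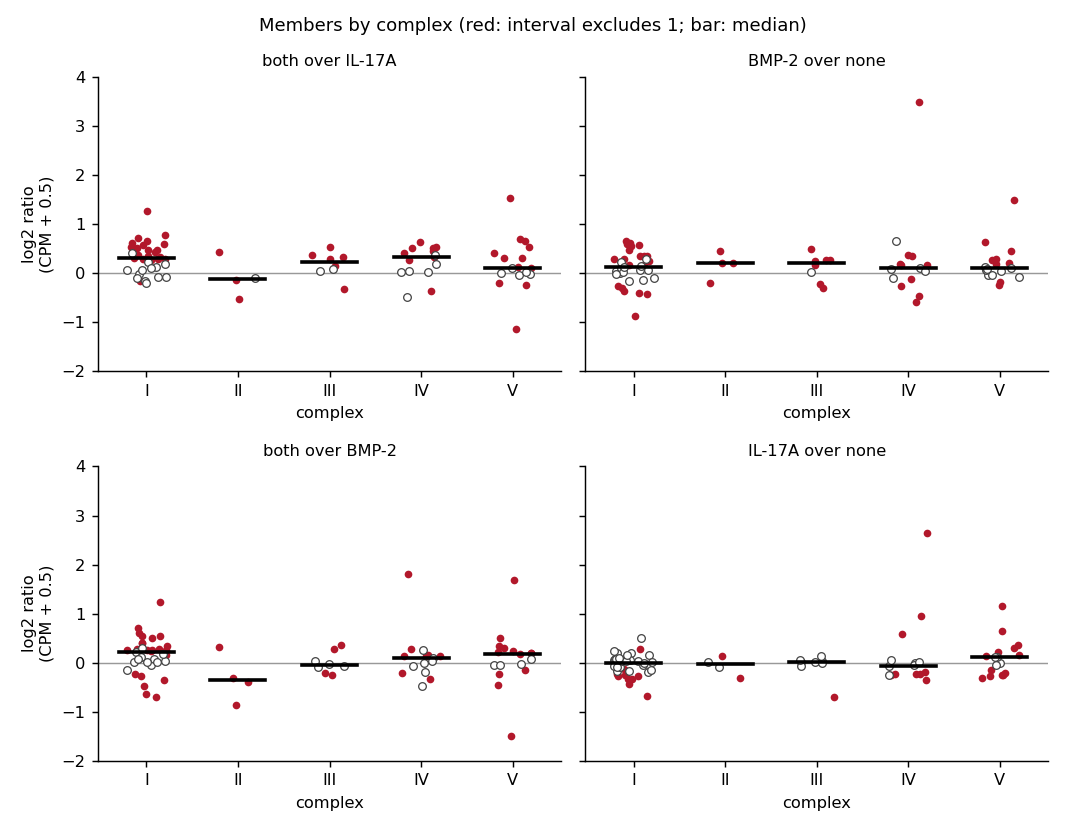
log2 ratio of each member (y axis, TMM-scaled CPM plus 0.5) by complex (x axis) for BMP-2 in the presence of IL-17A (both over IL-17A) and in its absence (BMP-2 over none), and for IL-17A in the presence of BMP-2 (both over BMP-2) and in its absence (IL-17A over none). Points are genes, red where the 95% counting interval excludes 1, and bars are medians. The complex I median lies at 0.31, 0.13, 0.22 and -0.01 in these panels, and the highest points of complex IV in the panels against none are Cox7a1, at 0 reads without cytokine.

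The second comparison asks how the genes differed with IL-17A. In the absence of BMP-2, 23 of 79 were lower beyond counting error, a share near that of all measured genes (29.1%, against 29.3%). The 12 that were higher made a smaller share than among all measured genes (15.2%, against 29.8%). Past 1.5-fold, 5 were higher (6.33%, against 19%) and 2 lower (2.53%, against 17.3%). With BMP-2 present, 35 were higher beyond counting error (44.3%, against 32.9%) and 17 lower (21.5%, against 33.1%). Past 1.5-fold, 5 were above (6.33%, against 21.0%) and 4 below (5.06%, against 21.9%). The median log2 ratio of the members was -0.002 in IL-17A over none and 0.12 in both over BMP-2. Complex I summed to 0.955 (0.933 to 0.976) in IL-17A over none and 1.13 (1.11 to 1.15) in both over BMP-2, and complex IV to 0.913 (0.888 to 0.940) and 1.06 (1.03 to 1.08). Complex V was at 1.00 (0.982 to 1.02) and 1.10 (1.08 to 1.12), complex III at 0.986 and 0.989 with intervals that span 1. The NADH-oxidizing module moved most among the arms of complex I, at 0.894 (0.859 to 0.930) in IL-17A over none and 1.22 (1.18 to 1.26) in both over BMP-2.

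Few members differed with IL-17A in the same direction in both states. Those higher beyond counting error in both numbered 5 (6.33%, against 11.6% of all measured genes): Cox7c, Atp5a1, Atp5g3, Atp5k and Atp5o. Those lower in both were 3 (3.8%, against 11.4%): Ndufb11, Ndufv3 and Cox7b. Opposite directions were seen in 14 (17.7%, against 17.1%). With 12 and 35 of 79 higher, 5.32 would be higher in both by these counts alone, close to the 5 seen. Across the 79 members the log2 ratios of the 2 comparisons had a Pearson r of -0.173, given as a description over genes that share 4 libraries. Atp5o, the OSCP protein that ties the F1 head to the stalk, had 1188 reads with both cytokines, 1020 with BMP-2, 1026 with IL-17A and 871 without cytokine. It was 1.28 times (1.17 to 1.41) in IL-17A over none and 1.13 times (1.04 to 1.23) in both over BMP-2. Its locus overlaps Donson, Cryzl1 and Itsn1, and without strand their reads cannot be told apart where exons meet. Atp5k, subunit e at the dimer interface of the synthase, had 432, 297, 349 and 308 reads, or 1.23 times (1.06 to 1.44) and 1.42 times (1.22 to 1.65). Atp5g3, a gene for the c subunit of the rotor, had 1493, 1248, 1210 and 1183 reads, or 1.11 times (1.03 to 1.21) and 1.16 times (1.08 to 1.26). Ndufc1, a small membrane-arm subunit of complex I, had 314, 250, 256 and 249 reads, with 1.12 times (0.937 to 1.34) in IL-17A over none, an interval that spans 1, and 1.22 times (1.03 to 1.45) in both over BMP-2.

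On the lower side, Ndufb11, an X-linked membrane-arm subunit of complex I, had 409 reads with both cytokines, 554 with BMP-2, 380 with IL-17A and 520 without cytokine. Both libraries with IL-17A lay below both libraries without it, at 0.796 times (0.696 to 0.911) in IL-17A over none and 0.719 times (0.631 to 0.818) in both over BMP-2. Cox7b, an X-linked small subunit of complex IV, had 458, 513, 351 and 488 reads, or 0.784 times (0.681 to 0.901) and 0.869 times (0.765 to 0.988). Ndufv3, an accessory subunit of the NADH-oxidizing module, had 521, 647, 433 and 562 reads, or 0.840 times (0.739 to 0.953) and 0.784 times (0.697 to 0.881), although in spliced reads it was 1.03 in IL-17A over none. Cox4i1, the common form of the largest nuclear subunit of complex IV, had 1746, 1790, 1208 and 1539 reads and was lower in IL-17A over none alone (0.855 times, 0.793 to 0.923). It lies inside the readthrough locus Gm20388 on the same strand, and 28.8% of its exon reads were not unique.

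The library with both cytokines set against the library without cytokine gave the widest count. Of 79 members, 46 were higher beyond counting error (58.2%, against 32.0% of all measured genes) and 10 lower (12.7%, against 33.2%), 9 were 1.5-fold higher (11.4%, against 20.6%) and 0 were 1.5-fold lower (0%, against 22.1%). Of 17 complex V members 16 had a ratio above 1, of 35 in complex I 25, of 15 in complex IV 11, of 8 in complex III 6 and of 4 in complex II 1. The summed ratios were 1.20 (1.18 to 1.23) for complex I, 1.12 (1.08 to 1.16) for complex III, 1.14 (1.11 to 1.17) for complex IV, 1.14 (1.12 to 1.16) for complex V and 0.883 (0.850 to 0.917) for complex II.

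Complex II, which is succinate dehydrogenase of the citric acid cycle and is wholly nuclear-encoded, differed in its sums from the proton-translocating complexes. Sdha (ENSMUSG00000021577, chr13:74322254-74350280, minus strand), the flavoprotein that oxidizes succinate, had 1641 exon reads with both cytokines, 2899 with BMP-2, 2079 with IL-17A and 2072 without cytokine. The library with BMP-2 alone was the highest and that with both cytokines the lowest, at 0.551 times (0.519 to 0.586) in both over BMP-2, 1.37 times (1.30 to 1.45) in BMP-2 over none and 0.757 times (0.709 to 0.808) in both over none. Sdhc, a membrane anchor, had 1385, 1776, 1291 and 1499 reads in that order, and Sdhb, the iron-sulphur subunit, 993, 1208, 953 and 1024. For these genes too BMP-2 alone was the highest library, with ratios in both over BMP-2 of 0.759 (0.707 to 0.815) for Sdhc and 0.800 (0.735 to 0.871) for Sdhb. Sdhd, the other anchor, went the opposite way, with 1188, 929, 775 and 1043 reads and 1.245 times (1.14 to 1.36) in both over BMP-2. The library with BMP-2 alone was also the one with the highest summed myeloid level, which was mostly Lyz2, while Csf1r was lowest there. Cd68, Tyrobp and Fcer1g were highest there too, at 50, 30 and 35 reads, whereas Cd14 and Adgre1 were highest without cytokine. In both over BMP-2, 5 of the 7 measured myeloid markers were lower beyond counting error and 1, Csf1r, was higher. Of all measured genes 33.1% were lower and 32.9% higher. The part of myeloid cells in complex II was not tested.

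The size of the Sdha difference depended on the class of reads. Spliced Sdha reads numbered 1159 with both cytokines, 1409 with BMP-2, 1001 with IL-17A and 1245 without cytokine, and the exon reads that were not spliced 482, 1490, 1078 and 827. Spliced reads thus made up 70.6% of Sdha exon reads with both cytokines, 48.6% with BMP-2, 48.1% with IL-17A and 60.1% without cytokine. In spliced reads Sdha was 0.817 times (0.755 to 0.884) in both over BMP-2 and 1.10 times (1.02 to 1.19) in BMP-2 over none, while both over IL-17A, 0.692 (0.648 to 0.739) in all exon reads, became 1.04 (0.954 to 1.13). For the whole complex, spliced reads gave 0.813 (0.776 to 0.852) in both over BMP-2 and 1.00 (0.953 to 1.05) in both over IL-17A. The lower complex II in both over BMP-2 was thus seen in each class of reads, and that in both over IL-17A was not.

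**Figure D4:**
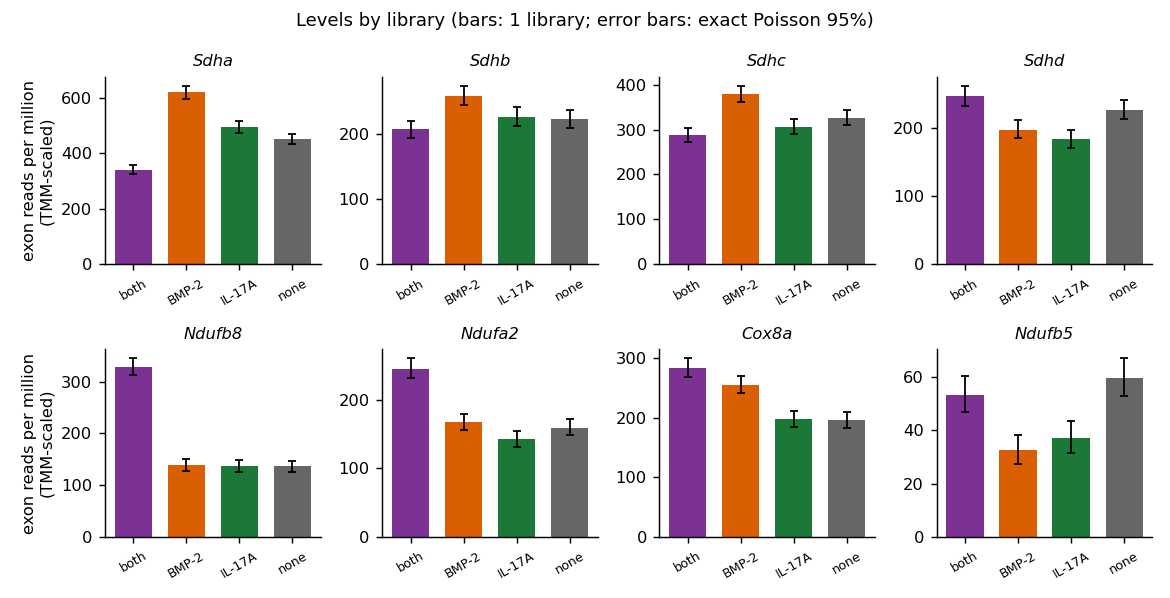
TMM-scaled exon reads as CPM (y axis) of 8 members in the libraries with both cytokines, BMP-2, IL-17A and none (x axis); bars are 1 library each and error bars exact Poisson 95% intervals. Sdha reaches 619 with BMP-2 and 341 with both cytokines, Ndufb8 reaches 328 with both cytokines against 136 to 139 in the other libraries, and Cox8a is higher in the libraries with BMP-2.

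A few genes stood far from the sum of the separate effects. Ndufb8 (ENSMUSG00000025204, chr19:44548572-44555440, minus strand), a membrane-arm subunit whose protein is widely used as a marker of assembled complex I, had 1579 reads with both cytokines, 649 with BMP-2, 576 with IL-17A and 623 without cytokine. The libraries with 1 cytokine lay at 1.01 and 1.02 times the library without cytokine, and the combination was 2.42 times it (2.21 to 2.66), 2.37 times BMP-2 (2.16 to 2.60) and 2.40 times IL-17A (2.18 to 2.65). In reads unique to the gene the ratio over none was 2.58 (2.34 to 2.86) and in spliced reads 2.65 (2.39 to 2.93). Its log2 level with both cytokines exceeded the sum of the separate log2 differences by 1.23. Ndufb8 accounted for part of the complex I sum, while the complex I median of 0.32 in both over none does not depend on its size.

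Ndufb5 (ENSMUSG00000027673, chr3:32736990-32751566, plus strand), another membrane-arm subunit, had 257 reads with both cytokines, 152 with BMP-2, 157 with IL-17A and 274 without cytokine. Each cytokine alone was below none, at 0.544 (0.444 to 0.666) for BMP-2 and 0.624 (0.510 to 0.762) for IL-17A, while both together were at 0.896 (0.753 to 1.07). Its end overlaps Mrpl47 on the other strand. Ndufa13, a subunit also known as the cell-death regulator GRIM-19, was highest in BMP-2 alone, with 874, 1318, 815 and 934 reads and 0.646 times (0.592 to 0.704) in both over BMP-2. Of its exon reads 32.4% were not unique. Ndufs5 and Ndufb4, membrane-arm subunits with 38.3% and 87.0% of exon reads not unique, had 586, 687, 428 and 526 reads and 239, 259, 179 and 166 reads.

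Among isoform groups, the common forms dominated. Cox7a1 (ENSMUSG00000074218, chr7:30184171-30186028, plus strand), the heart and skeletal muscle form of the subunit that Cox7a2 supplies elsewhere, had 17 reads with both cytokines, 24 with BMP-2, 11 with IL-17A and 0 without cytokine. Against a floor of 3 reads in the library without cytokine it was at least 5.42-fold higher with both, at least 7.85-fold higher with BMP-2 and at least 4.0-fold higher with IL-17A. The lower 95% limits of the counting intervals, which also hold the error of the reads seen, were lower, at 3.94 with both, 5.91 with BMP-2 and 2.74 with IL-17A. Per length it stayed at 6.73 to 13.0 RPKM where seen, against 188 to 274 RPKM for Cox7a2. The muscle genes Ckm, Actn2, Myh4, Myl1 and Myod1 were at 0 reads. Myog had 4 with BMP-2 and 0 elsewhere, and Pax7 had 1 and Ttn 3 with IL-17A and 0 elsewhere. Des, given above, was highest without cytokine, where Cox7a1 was at 0. The summed adipocyte level, also given above, was lowest without cytokine, at 40.5 CPM, with Ucp1 at 0 reads. The part of muscle or fat cells in Cox7a1 was not tested. Cox6b2, the testis form beside Cox6b1, had 86, 70, 73 and 95 reads with no interval for both over none away from 1 (0.865, 0.639 to 1.17). Cox7a2l, a factor that joins complexes III and IV into supercomplexes, had 346, 426, 390 and 444 reads and was 0.745 times (0.645 to 0.859) in both over none, the opposite side from Cox7a2.

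The c subunit of the ATP synthase rotor is encoded by 3 genes whose mature proteins are the same, and Atp5g1 and Atp5g2 share most reads with other loci, 74.0% and 98.5% of their exon reads not being unique. Atp5g1 had 1193 reads with both cytokines, 1185 with BMP-2, 953 with IL-17A and 959 without cytokine, and Atp5g2 had 765, 602, 426 and 551. Atp5g2 is reported as uncertain: both over none was 1.33 (1.19 to 1.48) in all exon reads and 0.958 (0.377 to 2.44) in the 6 to 11 unique reads per library. Summed over the 3 genes, both over none was 1.22 (1.16 to 1.29) in all exon reads and 1.21 (1.13 to 1.30) in unique reads.

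The genes that carry the family name without being stable subunits are given apart. Atp5sl (ENSMUSG00000057229, chr7:25619414-25625551, plus strand), now named Dmac2 and needed for assembly of the membrane arm of complex I, had 40 reads with both cytokines, 114 with BMP-2, 80 with IL-17A and 38 without cytokine. Each cytokine alone was above none, at 2.94 (2.02 to 4.37) and 2.29 (1.54 to 3.47), and the combination was at 1.01 (0.629 to 1.61). Atp5s, now Dmac2l, had 81, 23, 23 and 23 reads, so that both over none was 3.37 (2.10 to 5.61). Ndufa4l2, a hypoxia-inducible relative of Ndufa4, had 31, 35, 39 and 21 reads. Without these 4 genes, 10 of 75 subunits were 1.5-fold higher in both over IL-17A and 0 lower, and the median log2 ratio was 0.30.

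The check with reads unique to a gene changed few values. Of 79 members, 60 had at most 5% of exon reads not unique and 9 had over 20%. In both over IL-17A, 41 members were higher beyond counting error in unique reads, each of them also higher in all exon reads, and in both over none 42, each of them also higher in all exon reads. The complex sums from unique reads differed little, for example 1.27 (1.24 to 1.30) for complex I in both over IL-17A. The exception in size was Cox7c (ENSMUSG00000017778, chr13:86044816-86046904, minus strand), a small subunit of complex IV, with 222 reads with both cytokines, 60 with BMP-2, 124 with IL-17A and 89 without cytokine, of which 17, 9, 25 and 17 were unique. In all exon reads both over BMP-2 was 3.60 (2.70 to 4.88) and both over IL-17A 1.57 (1.255 to 1.97), whereas in unique reads they were 1.84 (0.777 to 4.69) and 0.598 (0.303 to 1.15). Its values are reported as uncertain. Spliced reads gave 39 members higher in both over IL-17A that were also higher in all exon reads. Sdha in IL-17A over none and Uqcrfs1, the Rieske protein of complex III, in BMP-2 over none were on opposite sides in spliced and in all exon reads, both beyond counting error; Uqcrfs1 is named here after its values were seen.

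**Figure D5:**
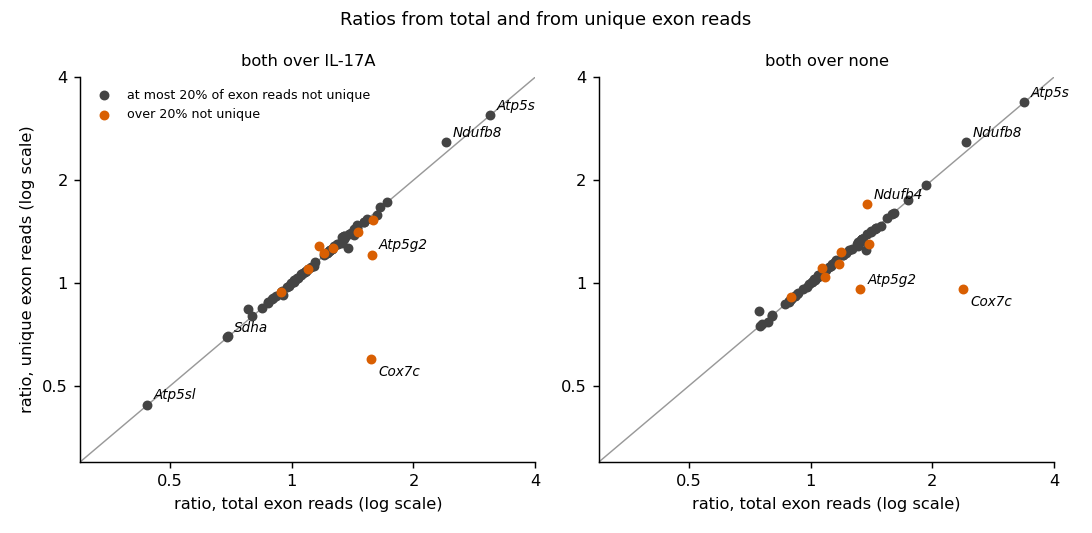
Ratio of each member from reads unique to the gene (y axis) against the ratio from all exon reads (x axis), both on log scales, for both cytokines over IL-17A and both over none. Points are genes, orange where over 20% of exon reads were not unique, and the line marks equal ratios; Cox7a1, at 0 reads without cytokine, is not drawn in the panel against none. Most genes lie on the line, and Cox7c lies at 1.57 and 0.598 in the first panel.

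In an additive model over the 4 libraries, edgeR's quasi-likelihood test with Benjamini-Hochberg adjustment called 0 of 79 members for BMP-2 (0% of all measured genes) and 0 for IL-17A (1 gene, 0.00881% of all measured genes). At an unadjusted p under 0.05 it called 0 members for BMP-2 (3.63% of all measured genes) and 0 for IL-17A (5.49%). DESeq2 also called 0 members for each, beside 9 genes for BMP-2 (0.0793% of the genes tested) and 49 for IL-17A (0.440%), and at an unadjusted p under 0.05 it called 0 members for each, against 3.90% and 5.33% of all measured genes. In edgeR's ranking the members came nearest to a call with Cox8a for BMP-2 (adjusted p = 0.987) and Cox7c for IL-17A (adjusted p = 0.907). Its spread is estimated from 1 residual degree of freedom, which is how far the combination lies from the sum of the single effects, and in it non-additivity and variation between cultures cannot be told apart. The fitted log2 difference for BMP-2 was above 0 in 62 of 79 members (78.5%, against 48.5% of all measured genes) with a median of 0.19, and that for IL-17A in 46 (58.2%, against 49.9%) with a median of 0.03.

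Short genes as a class moved with the same comparison. This comparison was added after seeing the data. Among other genes averaging 200 exon reads or more, the median log2 ratio in both over IL-17A was 0.24 in 146 genes with an exon length under 1000 bases, 0.11 in 601 of 1000 to under 2000 bases and -0.03 in 3605 of 2000 bases or more. Members averaging 200 reads or more in the same length classes had 0.33 (21 genes), 0.34 (25 genes) and 0.11 (25 genes). In BMP-2 over none the medians of the other genes were 0.14, 0.03 and -0.02, and those of the members 0.13, 0.19 and 0.08. The part of exon length in the members' ratios was not tested. Members also varied less among themselves: among the 71 with at least 200 reads the SD of the log2 ratio in both over IL-17A was 0.31, against 0.52 over 4423 genes with at least 200 reads.

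Other genes of the pathway were counted in lists. Of 12 measured nuclear genes for subunits and electron carriers named outside the rule, 10 were higher beyond counting error in both over IL-17A and 0 lower, with a median log2 ratio of 0.33. Of all measured genes 30.3% were higher and 32.2% lower. Atpif1, the inhibitor of the ATP synthase, had 1384 reads with both cytokines, 1087 with BMP-2, 1002 with IL-17A and 866 without cytokine, and Usmg5, a membrane subunit of the synthase also called DAPIT, had 1013, 845, 615 and 617. Cycs, cytochrome c, had 1243, 1051, 926 and 806 reads with 87.9% not unique, and Cyc1, cytochrome c1 of complex III, 767, 634, 530 and 484. In these 4 genes the combination was the highest library, but not in the whole list. Etfb, the gene of highest mean, had 1295, 1397, 927 and 1260 reads, with 76.1% not unique. It was 0.903 times (0.836 to 0.974) in both over BMP-2. The largest and smallest ratios of the list in both over IL-17A were those of Etfdh and Coq7. Etfdh had 295, 318, 125 and 370 reads, highest without cytokine, and Coq7 had 264, 246, 243 and 211.

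A further 13 subunits are encoded in mitochondrial DNA, and their difference from the nuclear genes was not tested. In both over IL-17A 7 of 13 were higher beyond counting error and 1 lower, with a median log2 ratio of 0.14, against 30.3% and 32.2% of all measured genes. In both over none 4 were higher and 4 lower with a median of -0.03, against 32.0% and 33.2% of all measured genes. mt-Cytb, the cytochrome b of complex III with almost all reads unique, had 2646 reads with both cytokines, 2447 with BMP-2, 2516 with IL-17A and 2589 without cytokine. mt-Co1 and mt-Co3, core subunits of complex IV, had 2958, 3102, 2260 and 3089 reads and 3013, 2820, 2405 and 3163 reads, with 54.3% and 99.2% not unique. Scaled to library size, IL-17A alone was the lowest library for mt-Co1 and mt-Co3.

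Of 49 measured assembly factors, 21 were higher beyond counting error in both over IL-17A and 7 lower, with a median log2 ratio of 0.35, where 30.3% of all measured genes were higher and 32.2% lower. In IL-17A over none 9 were higher and 14 lower with a median of -0.17, against 29.8% and 29.3% of all measured genes. Surf1, required to build complex IV and mutated in Leigh syndrome, had 262 reads with both cytokines, 83 with BMP-2, 96 with IL-17A and 88 without cytokine, a pattern of the combination alone like that of Ndufb8. Tmem126a, a factor for the membrane arm of complex I, had 610, 482, 327 and 402 reads, and Coa5 and Higd2a, factors for complex IV, had 392, 637, 434 and 723 reads and 447, 554, 394 and 563 reads. Coa5 was the reverse of the members, highest without cytokine. The largest and smallest ratios of the list in both over IL-17A were those of Surf1, at 2.39 (1.89 to 3.06), and of Bcs1l, at 0.28 (0.181 to 0.424). Bcs1l had 31, 73, 97 and 64 reads. Sdhaf2, which flavinates Sdha and is named here after its values were seen, had 458, 159, 173 and 254 reads, opposite in order to Sdha itself.

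Of 20 measured regulators of mitochondrial biogenesis, 5 were higher and 7 lower beyond counting error in both over IL-17A, where 30.3% and 32.2% of all measured genes were. Ppargc1a, the coactivator PGC-1α, had 0 reads in each library. Ppargc1b, of the same family, had 25 reads with both cytokines, 41 with BMP-2, 13 with IL-17A and 0 without cytokine. The factors whose words were searched in the promoters had low counts, with Esrra at 223 reads with both cytokines, 189 with BMP-2, 95 with IL-17A and 134 without cytokine. Nrf1 had 211, 113, 99 and 147 reads and Gabpa 270, 250, 185 and 199. In these the combination was the highest library, while Yy1 had 28, 14, 33 and 21 reads. The regulators of highest mean were Hif1a, with 1135, 612, 1016 and 602 reads, Myc, with 545, 389, 688 and 687, and Pprc1, with 690, 230, 480 and 592. In both over IL-17A Hif1a was 0.98 times (0.899 to 1.07), Myc 0.695 times (0.62 to 0.778) and Pprc1 1.26 times (1.12 to 1.42).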

How the data were processed

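RNA of cultured PαS cells was made into cDNA and amplified with the SMART-Seq v4 Ultra Low Input kit, and 1 library per condition was sequenced on an Ion Proton instrument. The authors mapped reads in CLC Genomics Workbench and deposited, per gene, counts of gene, exon, unique exon, spliced and intron reads. The build was mm10 per the submitters' processing notes, and the software version and mapping settings were not given in the sources used here. The deposited RPKM values were, when recomputed, exon reads per kilobase of exon, scaled to the gene reads of the library, by the authors' software. Such RPKM served only to compare levels between genes.

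Differences used exon counts scaled by TMM (edgeR 4.0.16 in R 4.3.3), with 0.5 added to CPM on the log2 scale and genes averaging under 10 reads left out. Ratios carry exact 95% Clopper-Pearson intervals, and a fold against 0 reads used a floor of 3. A gene counted as higher or lower beyond counting error when the interval excluded 1, and past 1.5-fold when the ratio also reached that size. The additive model used edgeR's quasi-likelihood test and DESeq2 1.42.0, with Benjamini-Hochberg adjustment over all measured genes, and the edgeR fit was tested on simulated data. Tables and plots used Python 3.11.15 with numpy 2.4.6, pandas 2.3.3, scipy 1.17.1 and matplotlib 3.10.9. Promoters from RefSeq (GRCm38.p6) were matched by symbol, with a start within 2000 bases of the deposited gene start.

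The members and gene lists were chosen with earlier results of these data known. Named members were the 3 most abundant per complex, all Sdh genes, measured isoforms, the 6 highest and 6 lowest by the smaller of the ratios in the 2 states for each cytokine (mean of at least 50 reads), the 3 highest and 3 lowest with both cytokines over none, the 5 with most reads not unique, and the 3 farthest above and below additivity. For other lists the plan was to name up to 4 of highest mean and the 2 most apart. It was not kept in full in every list, and some other genes were named. Alternatives were other scalings, read classes, filters, pseudocounts, thresholds, tools and the list without non-subunits.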

Additional observations from a re-analysis of the deposited data

Results flagged for a closer look

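Some values lay on opposite sides of 1 in the presence and in the absence of the other cytokine. With 1 library per condition the difference between the states was not tested in any of them. The effect of IL-17A on the complex I sum was 1.13 with BMP-2 present and 0.955 without it, and on the complex IV sum 1.06 and 0.913. The effect of BMP-2 on the complex II sum was 0.896 with IL-17A present and 1.19 without it, and Sdha, the member with the most reads in that sum, differed between libraries in its spliced share.

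Among single members, Ndufb5 had an IL-17A ratio of 1.65 with BMP-2 present and 0.624 without it. Atp5sl had an IL-17A ratio of 0.342 with BMP-2 and 2.29 without, and a BMP-2 ratio of 0.438 with IL-17A and 2.94 without, at 38 to 114 reads per library. Cox7c had a BMP-2 ratio of 1.57 with IL-17A present and 0.662 without it, with 86.3% of its exon reads not unique to the gene.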

How the results depend on the processing

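Of the values at the level of a comparison under an alternative, 228 kept their size (counts within 1.5 times) and 34 moved. All 25 kept their size with DESeq2 size factors, as did all 25 with TMM after removal of the 100 most abundant genes. Of values for single genes and complex sums 701 kept their size, 60 moved and 7 reversed. The counts of members past 1.5-fold depended most on the threshold. At a lower threshold, 0.32 on the log2 scale, they were 32 higher and 4 lower in both over IL-17A, 31 and 4 in both over none, 14 and 9 in both over BMP-2, and 17 and 6 in BMP-2 over none, with 6 lower in IL-17A over none, and over the 5 comparisons 25.1 to 28.5% of all measured genes were higher and 24.8 to 29.3% lower. At a 2-fold threshold they were 2 higher in both over IL-17A, 4 higher in both over none, 3 higher and 1 lower in both over BMP-2, 2 and 0 in BMP-2 over none and 3 and 0 in IL-17A over none, against 10.1 to 12.9% of all measured genes higher and 9.91 to 14.1% lower. Limited to genes with a mean of 200 exon reads and scaled on them they were 7 higher and 0 lower in both over IL-17A, 5 higher in both over none, 3 higher in both over BMP-2, 3 higher and 1 lower in BMP-2 over none and 1 higher in IL-17A over none. With the scaling kept, 9 of these 71 members were 1.5-fold higher in both over IL-17A (12.7%, against 10.1% of all genes of that depth). The counts beyond counting error in both over IL-17A at that depth were 41 of 71 members (57.7%, against 34.2% of all genes of that depth), a background chosen after seeing the data. A mean of 50 reads left 3 higher in IL-17A over none, and a mean of 1 read gave 2 lower in both over IL-17A. Subunits alone gave 3 higher in IL-17A over none and 0 lower in both over IL-17A. Library totals and unique reads each gave 1 lower in BMP-2 over none. Spliced reads gave 2 higher and 1 lower in IL-17A over none, 1 lower in both over none, and 4 members in place of 8 lower beyond counting error in both over IL-17A. For these alternatives, and for the scaling on genes of 200 reads, the share of all genes is not given here. Their counts describe the members alone and are not set against other genes. In spliced reads the values that changed side were Sdha at 0.865 in IL-17A over none and 1.04 in both over IL-17A, Ndufv3 at 1.03 in IL-17A over none, and the complex II sum at 1.00 in both over IL-17A. In unique reads they were Cox7c at 0.598 in both over IL-17A and 0.958 in both over none, and Atp5g2 at 0.958 in both over none. The cause was not tested. The edgeR and DESeq2 fits called 0 members under every alternative run, with the lowest adjusted p of a member between 0.757 and 1. No paired analysis was possible because each condition has 1 library and the labels carry no replicate numbers. Leaving out a library was not possible for the same reason. Depth limits Cox7a1, Ndufa4l2, Atp5s, Atp5sl and unique reads of Cox7c and Atp5g2.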

Other observations

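Genes of the citric acid cycle and of pyruvate entry, which supply the chain with NADH and succinate, were more often higher than lower with both cytokines than with either alone. Of 22 measured, 13 were higher and 4 lower beyond counting error in both over BMP-2, with a median log2 ratio of 0.20, against 32.9% and 33.1% of all measured genes. In both over IL-17A 10 were higher and 4 lower, with a median of 0.08, against 30.3% and 32.2% of all measured genes. Mdh2, the mitochondrial malate dehydrogenase, had 6682 reads with both cytokines, 3417 with BMP-2, 3156 with IL-17A and 4003 without cytokine, or 1.86 times (95% counting interval 1.78 to 1.94) in both over IL-17A. Its cytosolic counterpart Mdh1 had 1492, 1263, 1086 and 1340 reads. The combination was the highest library for both genes. Ogdh, of the 2-oxoglutarate dehydrogenase complex, was not among these, with 1210, 1080, 1341 and 1331 reads. Pdhx, which anchors a component of the pyruvate dehydrogenase complex, had 22 reads with both cytokines, 198 with BMP-2, 87 with IL-17A and 93 without cytokine, so that the combination was the lowest library, at 0.222 times IL-17A (0.132 to 0.357).

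Genes of mitochondrial protein import and inner membrane carriers were more often higher than lower with both cytokines, though single genes went both ways. In both over none 17 of 28 measured were higher beyond counting error and 6 lower, with a median log2 ratio of 0.20. The shares of all measured genes were 32.0% and 33.2%. Of 28 measured, 10 were higher and 5 lower beyond counting error in both over IL-17A, with a median log2 ratio of 0.07. Of all measured genes 30.3% were higher and 32.2% lower. Hspa9, the matrix chaperone mortalin that pulls proteins through the import channel, had 3094 reads with both cytokines, 2023 with BMP-2, 1743 with IL-17A and 2225 without cytokine. Hspd1, the chaperonin that folds imported proteins, was opposite in order, with 2452, 3477, 3304 and 2545 reads. The ADP/ATP carriers Slc25a4 and Slc25a5 had 2979, 3507, 2506 and 3408 reads and 3148, 2910, 2485 and 2696 reads. The largest and smallest ratios of the list in both over IL-17A were those of the import receptor Tomm70a, with 520, 433, 237 and 356 reads, and of the small carrier Timm10 of the intermembrane space, with 22, 50, 52 and 54.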
